A study of Mus musculus with 12 samples.

Results

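The lacrimal gland of the NOD mouse was compared between 8 and 12 weeks of age. The members are the genes with at least 1 FPKM (a read-pair density corrected for transcript length and library depth) in 3 or more of the 6 NOD libraries, which kept 9601 of the 11736 genes listed. The comparison uses 3 NOD libraries of 12 weeks and 3 of 8 weeks, out of 12 libraries in the study. The other 6 libraries come from control mice and from mice labelled ESS, with 3 libraries each, and enter here through the estimate of spread and as reference levels. Both NOD groups carry the same strain label and are untreated as far as the labels say. The labels give no age or strain for the control and ESS libraries, and for the NOD libraries they name neither sex nor hour of collection nor whether each library is a separate animal, so p-values measure only the spread between these samples.

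The lacrimal gland makes the watery part of tears. Its acinar cells secrete proteins, its ducts and myoepithelial cells move the fluid, and plasma cells between the acini make the dimeric IgA that the epithelium carries into tears. The NOD (non-obese diabetic) mouse is an inbred strain that spontaneously develops autoimmune disease, and lymphocytes infiltrate its lacrimal glands as it ages. Interferons, which such infiltrates release, raise a shared set of antiviral genes and the class I molecules that present peptides to T cells.

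The NOD libraries differed somewhat in depth and make-up. The step between low values put the NOD libraries at 0.778 to 1.13 times the mean depth of the series, with the shallowest being an 8-week library. Secretoglobins, small tear proteins, took 38.9% to 44.2% of all listed FPKM. One of them, Scgb1b2, had 44184 FPKM in 8-week replicate 2 and 102465 FPKM in 8-week replicate 3. The median of the tested genes was 5.38 and 4.61 FPKM in the same 2 libraries. Correlations of log2 values were 0.982 to 0.987 within the NOD groups and 0.978 to 0.982 between the ages. The first principal component (28.7% of variance) separated the ages, and the next (25.8%) set 8-week replicate 3 apart from the other 5 libraries. Acinar cells were well represented, with Lcn11, a lacrimal lipocalin, at 5976 to 6821 FPKM in all 6 libraries, and the 8 listed salivary gland markers summed to 10.3 to 31.3 FPKM. In bulk tissue, fewer cells of a type and less RNA per cell cannot be told apart.

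Of the 9601 genes, 15 passed the test (0.156%), of which 9 rose (0.0937%) and 6 fell (0.0625%) between 8 and 12 weeks. The test was limma's moderated test on log2(FPKM + 1) over all 12 libraries, with a Benjamini-Hochberg adjusted p under 0.05 over all genes, and log2 differences on this scale understate changes of low genes. A gene could enter through 1 age alone, as H2-Q7, Npas2, Myoc, Olfm4 and Scgb1b10 did. Such entry favours groups that lie apart, and a call. Without the filter on low values 15 genes passed, 13 of them the same. At an unadjusted p under 0.05 there were 899 genes, 309 higher and 590 lower at 12 weeks. The median log2 difference of all genes was -0.03. All 3 libraries of 12 weeks lay above all 3 of 8 weeks in 526 genes (5.48%) and below them in 965 (10.1%), and these shares are the background for the counts of list members given here. This balance depends on scaling: it was 915 above and 925 below with library medians centred, 982 and 866 after quantile normalization, and 1223 and 572 after rescaling without the genes over 1000 FPKM. With the 6 NOD libraries alone in the fit, 32 genes passed (0.333%, 16 or 0.167% in each direction), and 13 of the 15 were among them, all but Olfm4 and Slc25a35. Genes near 0 in the control and ESS libraries have little spread there, which can lower their p over all 12 libraries. Rises were 60% of the calls as deposited, and 76% of 25 calls after rescaling without the genes over 1000 FPKM.

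**Figure D1:**
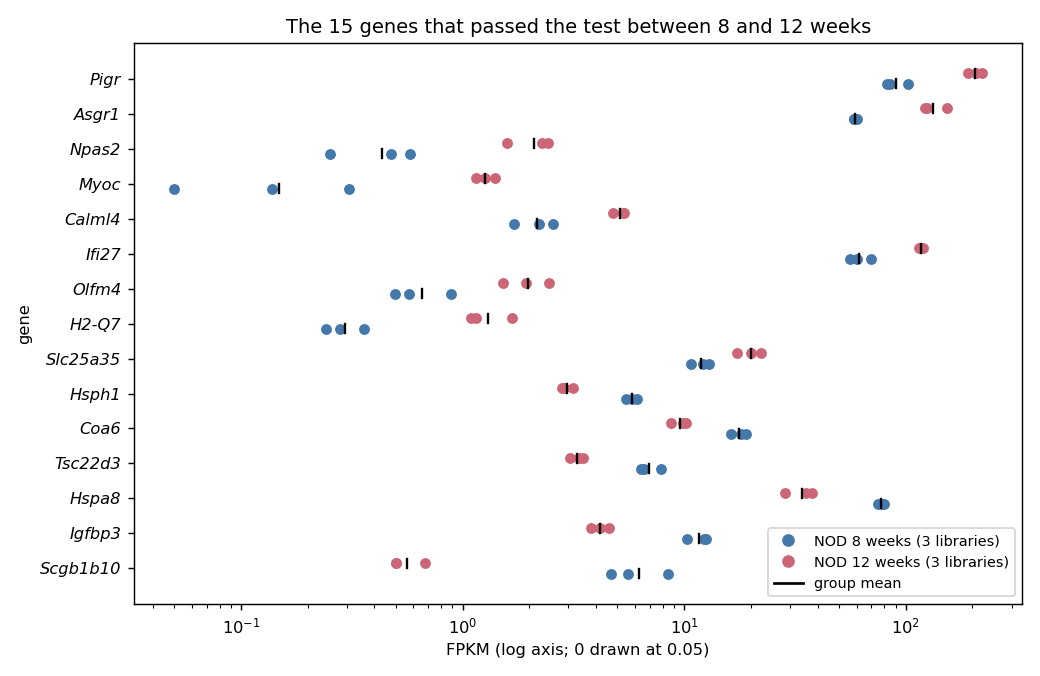
FPKM of the 15 genes that passed the test, on a log axis, with a point for each of the 3 libraries at 8 weeks and the 3 at 12 weeks and a bar at each group mean. The groups do not overlap in any of the 15, and Myoc is at 0 in 1 library of 8 weeks, drawn at 0.05.

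The receptor that carries IgA into tears rose. Pigr (chr1:130826684-130852249, GRCm38, plus strand) encodes the polymeric immunoglobulin receptor of the secretory epithelium. It stood at 221, 207 and 191 FPKM in the 12-week libraries and at 103, 85.0 and 82.0 FPKM in the 8-week libraries. Every 12-week library exceeded every 8-week library, and the 12-week level lay within the range of the control libraries, 178 to 273 FPKM. The mean was 2.29-fold higher at 12 weeks, a log2 difference of 1.19 ± 0.15 (SE) with an adjusted p of 0.0086. The call was lost without 12-week replicate 2, at an adjusted p of 0.052. Jchain, the chain that joins IgA units, had 66.1, 52.2 and 57.4 FPKM at 12 weeks and 35.0, 36.6 and 23.9 FPKM at 8 weeks. Its groups did not overlap, and it missed the threshold with a log2 difference of 0.88 and an adjusted p of 0.096. Of the 6 plasma cell genes tested, 0 passed, and Jchain and Mzb1, an endoplasmic reticulum protein of antibody-secreting cells, were the 2 whose 12-week libraries all lay above. Derl3, Xbp1 and Sdc1 overlapped between the ages, and acinar cells also express Xbp1.

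Interferon-response genes were mostly higher at 12 weeks. Of the 22 genes of this list 20 were in the table and 15 were tested, 1 rose and 0 fell, and in 10 of the 15 all 12-week libraries lay above all 8-week libraries, against 5.48% of all genes. The median log2 difference of the 15 was 0.55. Ifi27 (chr12:103434211-103440239, plus strand), an interferon-induced protein, had 117, 115 and 120 FPKM at 12 weeks and 69.3, 59.98 and 56.1 FPKM at 8 weeks. It rose 1.90-fold, with a log2 difference of 0.92 ± 0.12 and an adjusted p of 0.012, a call lost without replicate 2 or 3 of either age (adjusted p up to 0.062). Bst2, the antiviral protein tetherin, had 16.8, 13.3 and 15.2 FPKM at 12 weeks and 9.02, 5.4 and 8.21 FPKM at 8 weeks, a log2 difference of 0.94 with an adjusted p of 0.058. Irf7, the transcription factor that amplifies interferon output, stood at 3.04 to 3.11 FPKM at 12 weeks and 1.03 to 2.06 FPKM at 8 weeks (adjusted p = 0.401). Isg15 went the other way on average, with 3.17, 2.40 and 1.94 FPKM at 12 weeks against 4.55, 2.17 and 3.09 FPKM at 8 weeks. The libraries differed in which members led: Usp18, Stat2, Ifit1 and Ifit3 were highest in 12-week replicate 2, while Bst2 and Ly6e were highest in replicate 1. The summed level of these 20 genes was 172 to 175 FPKM at 12 weeks, 85.4 to 113 FPKM at 8 weeks and 576 to 717 FPKM in control glands. Ifi27 alone made up most of the NOD sums, with 115 to 120 FPKM at 12 weeks and 56.1 to 69.3 FPKM at 8 weeks.

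Class I antigen presentation showed the same order. Of 13 genes tested 1 rose and 0 fell, and the median log2 difference was 0.34. All 12-week libraries lay above in 7 of 13, against 5.48% of all genes. H2-Q7 (chr17:35439155-35443773, plus strand), a nonclassical class I heavy chain, stood at 1.67, 1.09 and 1.15 FPKM in the 12-week libraries and at 0.360, 0.242 and 0.279 FPKM in the 8-week libraries. Its log2 difference was 0.82 ± 0.14 with an adjusted p of 0.046, just inside the threshold, and it entered the test through its 12-week values alone. The call was lost in 12 of 23 alternatives. These included dropping the filter on low values and leaving out any 1 NOD library, control replicate 1 or ESS replicate 3. B2m, the light chain shared by class I molecules, had 167, 95.8 and 103 FPKM at 12 weeks and 59.5, 57.9 and 59.4 FPKM at 8 weeks. Replicate 1 stood above the rest, and without it the log2 difference went from 0.99 to 0.74, neither passing (adjusted p = 0.154 and 0.330). H2-K1, a classical heavy chain, had 12.4, 8.44 and 9.64 FPKM at 12 weeks and 5.82, 7.06 and 4.09 FPKM at 8 weeks (adjusted p = 0.176). Genes of this family resemble each other, and the split of reads among them is uncertain. No other annotated gene matched H2-Q7 at 95% identity over 50% of its longest transcript in a single alignment, and matches in separate blocks were not counted. The H2-Q7 transcripts did not repeat the order of the gene values. In 12-week replicate 3 they had 0.072, 0 and 0 FPKM, while H2-Q7-204 had 0.265 and 0.441 FPKM in 8-week replicates 1 and 3.

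**Figure D2:**
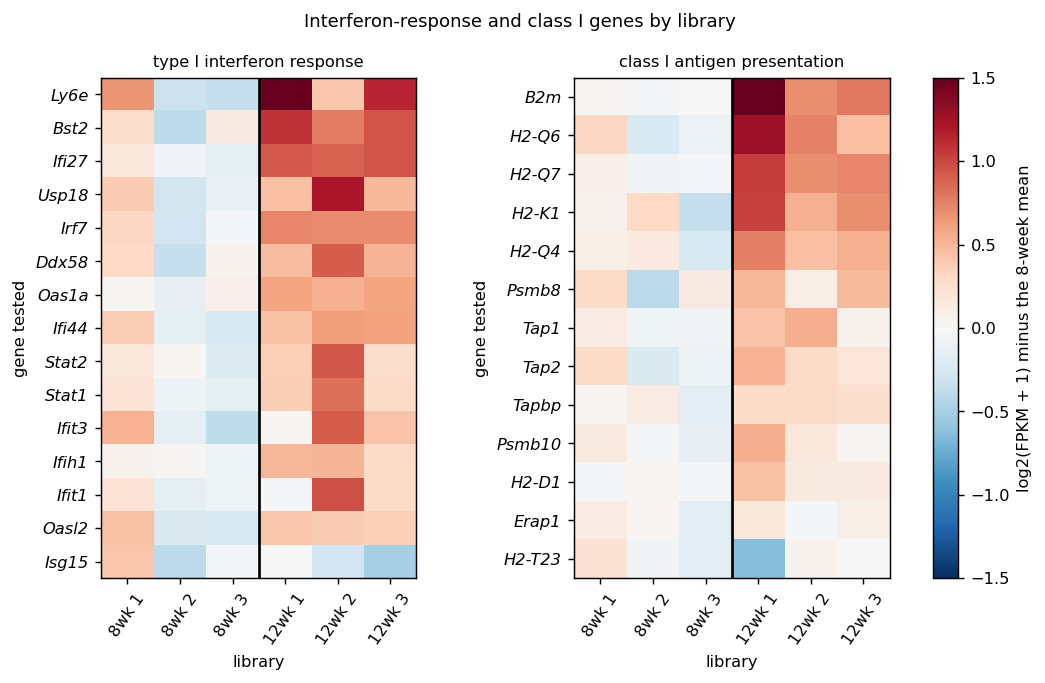
Difference from the 8-week mean in log2(FPKM + 1) for each tested interferon-response gene (left) and class I gene (right), with a column for each of the 6 NOD libraries and red for higher. The 12-week columns are mostly red, Isg15 and H2-T23 are the members with a negative mean difference, and B2m is strongest in 12-week replicate 1.

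No marker gene of infiltrating cells passed the test. The class II and B cell sums were higher at 12 weeks without overlap, while the macrophage, pan-leukocyte, T cell and plasma cell sums overlapped between the ages. Summed macrophage and monocyte markers were 118 to 182 FPKM at 12 weeks and 115 to 125 FPKM at 8 weeks, with 0 of 13 tested members passing and C1qc the 1 whose groups did not overlap. Summed pan-leukocyte genes were 45.8 to 64.4 FPKM against 37.1 to 48.4 FPKM, with 0 of 11 passing and 2 wholly above. The class II genes, which present antigen to helper T cells, summed to 147 to 224 FPKM at 12 weeks and 126 to 140 FPKM at 8 weeks, without overlap. Of 5 class II genes tested 0 passed and 2 lay wholly above (1 to 3 under the other scalings), with a median log2 difference of 0.31. As deposited, 5.48% of all genes lay wholly above. Of 18 T cell genes 5 were listed and 1 tested, with sums of 2.73 to 5.05 FPKM at 12 weeks and 2.17 to 4.06 FPKM at 8 weeks. Plasma cell sums were 497 to 570 FPKM and 483 to 528 FPKM. A single listed gene reached 349 FPKM in a NOD library, so 1 gene can hide changes of lower members in these sums. Jchain and Mzb1 lay wholly above at 12 weeks. So did Irf4 (0.491 to 0.686 against 0.333 to 0.402 FPKM) and Tnfrsf17 (0.329 to 0.856 against 0 to 0.284 FPKM), both untested. Prdm1 and Pou2af1, also untested, overlapped, as did Derl3, Xbp1 and Sdc1. Of 14 B cell genes 3 were listed and 0 tested, each at 1.10 FPKM or less in the NOD libraries. The B cell sums were 1.74 to 2.83 FPKM at 12 weeks and 0.907 to 1.66 FPKM at 8 weeks, again without overlap. 12-week replicate 1 was the highest library in the macrophage, leukocyte and class II sums. The part of these cells in the interferon and class I differences was not tested.

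Red-cell transcripts were also higher at 12 weeks. The 5 listed erythrocyte genes summed to 263 to 335 FPKM at 12 weeks and 151 to 193 FPKM at 8 weeks. Hbb-bs, an adult beta-globin, had 99.6, 109 and 121 FPKM against 67.5, 65.1 and 50.9 FPKM, a log2 difference of 0.84 with an adjusted p of 0.222, or 0.033 with the NOD libraries alone. In 4 of 5 members all 12-week libraries lay above, against 5.48% of all genes, and 0 passed over all 12 libraries. The part of blood in the other differences was not tested.

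Heat shock genes were mostly lower at 12 weeks. Hspa8 (chr9:40800984-40810087, plus strand), the constitutive Hsc70 chaperone, had 37.8, 28.4 and 35.5 FPKM at 12 weeks and 80.0, 77.7 and 75.1 FPKM at 8 weeks. Exons of Hspa8 overlap 3 small nucleolar RNA genes on the same strand, so its reads are uncertain in part. Each 8-week library was above each 12-week library, and Hspa8 fell with a log2 difference of -1.18 ± 0.17 and an adjusted p of 0.017. The call was lost with the replicate block and without any 1 NOD library other than 12-week replicate 1 (adjusted p up to 0.083). Hsph1 (chr5:149614287-149636376, minus strand), the Hsp110 nucleotide exchange factor that works with it, had 2.88, 3.15 and 2.81 FPKM against 6.10, 5.82 and 5.44 FPKM. It fell with a log2 difference of -0.78 ± 0.13 at an adjusted p of 0.046, a call lost in 17 of 25 alternatives, among them leaving out any 1 NOD library, control replicate 1 or ESS replicate 1 or 2. Of the 13 heat shock genes tested, 2 fell and 0 rose, all 12-week libraries lay below in 10 of 13 against 10.1% of all genes, and the median log2 difference was -0.34. Dnaja1, 1 of the 10, did not keep its lower mean with transcript values summed per gene. Near copies were not sought for members that were not called, such as Hspa1a and Hspa1b, so their reads could have been split unevenly. Hspe1, the mitochondrial Hsp10 co-chaperonin, stood at 18.9, 18.2 and 21.2 FPKM as opposed to 26.0, 24.3 and 24.5 FPKM (adjusted p = 0.262). Bag3, a co-chaperone, was the member with a higher mean at 12 weeks. With libraries rescaled without the genes over 1000 FPKM the count of members below was 8 of 13.

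The promoters of the chaperones are shown because their heat shock elements are shared. The RefSeq promoter table (build GRCm38.p6) holds 10 of the 13 genes, and 7 of these 10 carry GAANNTTC or TTCNNGAA, searched on both strands in the 250 bases before the start, where 14.5% of all genes in the table do. Capitals mark the element, in Hsph1 at chr5:149636337-149636586 (minus strand) and in Hspe1 at chr1:55087898-55088147 (plus strand), where 3 matches overlap.
Hsph1: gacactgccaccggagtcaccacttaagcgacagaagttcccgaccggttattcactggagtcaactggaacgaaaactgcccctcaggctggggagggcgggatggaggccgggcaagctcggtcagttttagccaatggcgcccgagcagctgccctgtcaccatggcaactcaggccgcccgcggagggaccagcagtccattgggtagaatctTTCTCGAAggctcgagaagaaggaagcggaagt
Hspe1: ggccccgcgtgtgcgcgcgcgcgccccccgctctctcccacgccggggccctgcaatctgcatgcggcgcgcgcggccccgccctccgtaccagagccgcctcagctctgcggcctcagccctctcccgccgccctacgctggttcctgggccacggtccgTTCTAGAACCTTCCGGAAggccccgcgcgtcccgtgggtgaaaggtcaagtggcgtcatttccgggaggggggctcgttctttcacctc
Hspa8 and Hsp90aa1 have no entry there. A match is a description of these letters and not evidence of binding.

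The clock genes divided into members higher and members lower. Npas2 (chr1:39193731-39363236, plus strand), a paralogue of the clock's activator Clock that pairs with Arntl, stood at 2.44, 2.27 and 1.58 FPKM in the 12-week libraries and at 0.577, 0.476 and 0.251 FPKM in the 8-week libraries. Its groups were apart, and Npas2 rose with a log2 difference of 1.11 ± 0.14 at an adjusted p of 0.0086, a call lost only without 12-week replicate 2 among 24 alternatives. Arntl (Bmal1), the partner, had 6.47, 5.75 and 4.67 FPKM against 3.05, 3.43 and 2.84 FPKM, again with the groups apart (log2 difference 0.68, adjusted p = 0.191). Several genes that the pair activates lay the other way. Per3, a period protein of the repressor arm, stood at 0.436, 0.903 and 0.964 FPKM in the 12-week libraries and at 2.17, 2.32 and 1.59 FPKM in the 8-week libraries (log2 difference -0.78, adjusted p = 0.171). Per2 had 0.630, 0.814 and 1.21 FPKM against 2.06, 1.88 and 2.05 FPKM, with an adjusted p of 0.237. Tef and Dbp, transcription factors of the output arm, had log2 differences of -1.11 and -0.99, and in each all 12-week libraries lay below. Of 17 clock genes tested, 1 rose, 0 fell, 2 lay wholly above and 4 wholly below, against 5.48% and 10.1% of all genes. Per1, Cry1, Cry2 and Nr1d1 overlapped between the ages. The labels name no hour of collection, so a difference of age and one of hour cannot be told apart here.

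The Per3 and Tef promoters are shown for the clock motifs they hold. In the 16 clock genes with an entry in the RefSeq table, the D-box TTATGTAA was found in 1, the E-box CACGTG in 5 and the half-site AGGTCA in 4, on either strand of the 250 bases, and 0.977%, 6.86% and 15.8% of all genes hold them. Capitals mark 2 D-boxes in Per3 (chr4:151044666-151044915, minus strand) and an E-box in Tef (chr15:81811164-81811413, plus strand).
Per3: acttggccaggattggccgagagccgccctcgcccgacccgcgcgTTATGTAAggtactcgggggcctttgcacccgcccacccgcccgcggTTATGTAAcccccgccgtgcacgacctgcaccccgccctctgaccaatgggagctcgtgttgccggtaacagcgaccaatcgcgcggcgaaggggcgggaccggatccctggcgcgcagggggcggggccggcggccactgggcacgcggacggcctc
Tef: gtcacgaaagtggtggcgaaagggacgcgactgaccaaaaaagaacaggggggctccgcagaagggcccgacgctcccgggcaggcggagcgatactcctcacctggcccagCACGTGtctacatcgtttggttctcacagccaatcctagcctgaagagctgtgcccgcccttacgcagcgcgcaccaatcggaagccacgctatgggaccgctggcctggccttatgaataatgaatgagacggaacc
The Npas2, Arntl and Dbp windows hold none of these 3 letter strings, and Per2 has no entry. Of the 5 genes with an E-box, Tef lay wholly below, Bhlhe41, Cry1 and Per1 overlapped between the ages, and Ciart was not tested.

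**Figure D3:**
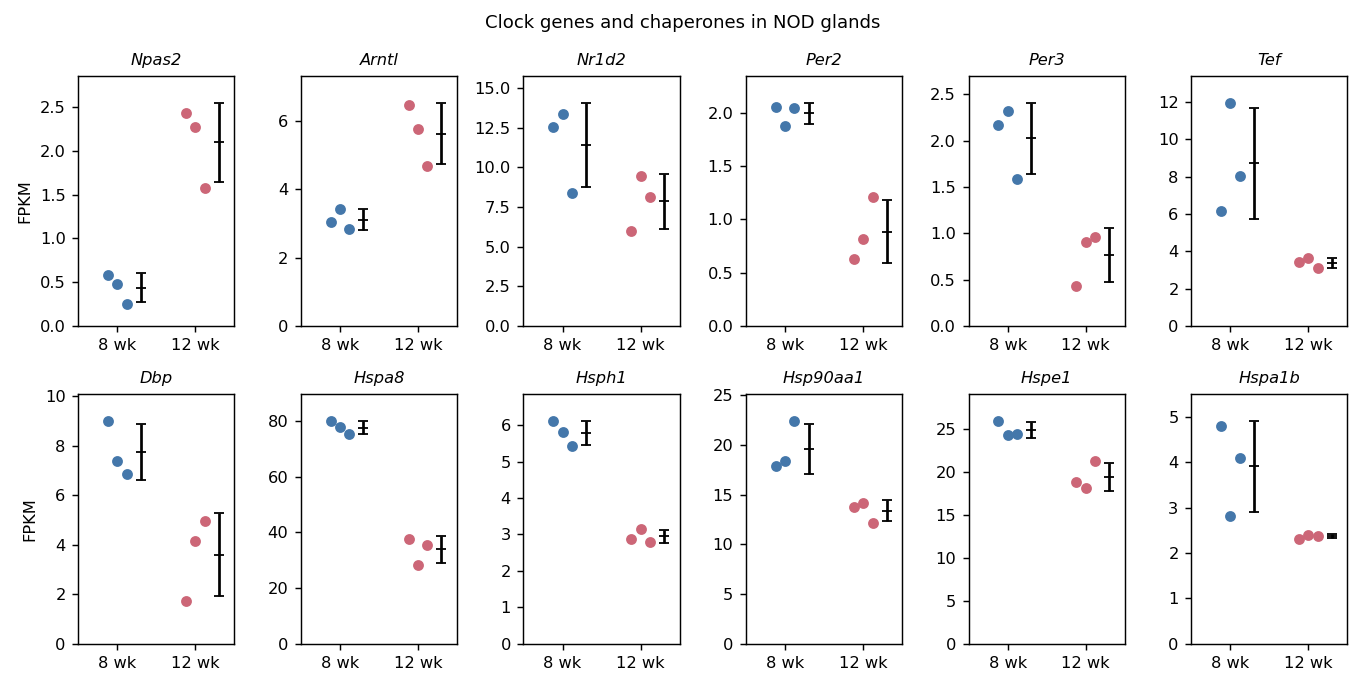
FPKM of 7 clock genes and 5 chaperones in each of the 3 libraries of 8 weeks (blue) and 12 weeks (red), with mean ± SD beside the points. Npas2 and Arntl are higher at 12 weeks, Per2, Per3, Tef, Dbp and the 5 chaperones are lower, and Nr1d2 overlaps between the ages.

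Interferon-stimulated response elements were sought in the same way. The element searched, GAAA and GAAA with 2 bases of any kind between them, occurs on either strand in 8 of 15 interferon-response genes with an entry, in 2 of 13 class I genes (B2m and H2-T23) and in 3.46% of all genes. The 8 include Isg15, with a lower mean at 12 weeks, and Rsad2, which was below the filter and not tested. It is in capitals in Bst2 (chr8:71537473-71537722, minus strand), where 2 matches overlap, and in B2m (chr2:122147437-122147686, plus strand).
Bst2: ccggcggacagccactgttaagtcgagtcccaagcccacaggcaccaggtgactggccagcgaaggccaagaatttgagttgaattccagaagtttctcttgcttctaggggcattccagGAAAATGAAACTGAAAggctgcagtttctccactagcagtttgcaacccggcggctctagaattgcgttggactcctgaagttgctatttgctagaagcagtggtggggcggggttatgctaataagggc
B2m: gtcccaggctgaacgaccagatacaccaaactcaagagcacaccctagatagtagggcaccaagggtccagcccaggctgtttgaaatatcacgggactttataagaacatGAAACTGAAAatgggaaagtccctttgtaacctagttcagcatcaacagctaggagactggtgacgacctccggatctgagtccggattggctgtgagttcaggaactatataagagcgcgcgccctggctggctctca
Ifi27 has no entry there, and the Irf7 window holds no match.

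Glucocorticoid-responsive genes gave 1 call. Tsc22d3 (chrX:140539528-140600659, minus strand), which encodes GILZ, an anti-inflammatory glucocorticoid target, stood at 3.51, 3.04 and 3.34 FPKM in the 12-week libraries and at 7.82, 6.57 and 6.40 FPKM in the 8-week libraries. It fell with a log2 difference of -0.88 ± 0.10 and an adjusted p of 0.0063, and was not called with transcript values summed per gene (adjusted p = 0.164). Sgk1, a kinase that glucocorticoids also raise, had 2.01, 2.3 and 2.07 FPKM against 5.52, 4.40 and 3.6 FPKM (adjusted p = 0.195). Fkbp5, a further target, had 9.32 to 11.6 FPKM at 12 weeks and 9.00 to 11.5 FPKM at 8 weeks, Mt2 lay wholly above at 12 weeks, and of 11 genes tested 1 fell and 0 rose.

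Of the 6 genes that fell, Scgb1b10 and Igfbp3 had the largest log2 differences. Scgb1b10 (chr7:32100853-32102169, plus strand), a secretoglobin, stood at 0.502, 0.50 and 0.676 FPKM in the 12-week libraries and at 4.68, 5.58 and 8.48 FPKM in the 8-week libraries. The mean was 11.2-fold higher at 8 weeks, with a log2 difference of -2.18 ± 0.19 and an adjusted p of 0.0011. At a pseudocount of 0.1 the call was lost (adjusted p = 0.127). Scgb1b10 is 99.5% identical to Scgb1b17 over most of its longest transcript, so its reads could have been assigned unevenly. Igfbp3 (chr11:7206086-7213923, minus strand), which binds insulin-like growth factors, had 4.57, 4.18 and 3.81 FPKM against 12.3, 10.3 and 12.5 FPKM. Igfbp3 fell with a log2 difference of -1.29 ± 0.14 and an adjusted p of 0.0036, and kept its call in all 25 alternatives tried. The 8-week level stood above control, where Igfbp3 had 5.61, 7.75 and 5.19 FPKM. Among 16 secretoglobins of the prepared list, 0 passed, and all 12-week libraries lay below in 6, against 10.1% of all genes. Mup5, a major urinary protein, had 35.5, 41.5 and 52.9 FPKM against 239, 220 and 235 FPKM, a difference larger than the spread of the NOD libraries (adjusted p = 7.7e-05 with these alone) but with an adjusted p of 0.306 over all 12, where the ESS libraries lay between 0.912 and 34.4 FPKM.

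The remaining called genes have varied roles. Asgr1 (chr11:70054085-70057894, plus strand), an asialoglycoprotein receptor subunit best known from liver, had 153, 124 and 122 FPKM against 58.6, 58.6 and 60.5 FPKM and rose 2.25-fold (adjusted p = 0.024), a call lost without any 1 of the 6 NOD libraries and with transcript values summed per gene. Calml4, a calmodulin-like protein, had 5.32, 5.34 and 4.80 FPKM against 2.22, 2.56 and 1.70 FPKM and rose with an adjusted p of 0.0045. It was at 0.147 FPKM or less in control and 0.117 FPKM or less in ESS, levels that add little spread to the fit. With the NOD libraries alone the adjusted p of Calml4 was 0.016. The Calml4 call was lost at a pseudocount of 0.1 (adjusted p = 0.183). Slc25a35, a mitochondrial carrier, rose 1.67-fold from 12.9, 12.2 and 10.8 FPKM to 17.3, 20.1 and 22.3 FPKM (adjusted p = 0.036). Coa6, a cytochrome c oxidase assembly factor, fell to 8.70, 9.89 and 10.2 FPKM from 16.2, 19.1 and 18.0 FPKM (adjusted p = 0.015). The Coa6 call was lost without any 1 NOD library other than 8-week replicate 1, and the Slc25a35 call without any other than 12-week replicate 1, without control replicate 1, without ESS replicate 2, after rescaling (adjusted p = 0.052), with the NOD libraries alone (adjusted p = 0.062) and with the replicate block (adjusted p = 0.063). Myoc and Olfm4, which fall below the level set for naming and were named after their values were seen, are olfactomedin family members. Myoc stood at 1.14 to 1.40 FPKM at 12 weeks and 0 to 0.308 FPKM at 8 weeks, and Olfm4 at 1.52 to 2.46 against 0.493 to 0.889 FPKM, with adjusted p-values of 0.0093 and 0.017. Myoc was no longer called at a pseudocount of 0.1 (adjusted p = 0.165) or without 12-week replicate 2 or 3. Olfm4 was no longer called at that pseudocount, with the NOD libraries alone (adjusted p = 0.065), with the replicate block (adjusted p = 0.051), with transcript values summed per gene, or without 12-week replicate 3 or 8-week replicate 1 or 3. Exons of Coa6, Slc25a35 and Myoc overlap those of Tarbp1, Rangrf and Myocos on the opposite strand, and whether strand was used in counting is not stated, so their values are uncertain. Exons of Olfm4 overlap those of Gm6999 on the same strand.

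Fatty acid synthesis genes included higher members, led by 12-week replicate 1. Scd2, a stearoyl-CoA desaturase, stood at 100, 56.5 and 49.9 FPKM in the 12-week libraries and at 25.2, 28.9 and 19.7 FPKM in the 8-week libraries (log2 difference 1.40, adjusted p = 0.063). Srebf1, the master regulator of lipid synthesis, had 28.6, 18.3 and 17.2 FPKM against 11.8, 12.9 and 10.2 FPKM (adjusted p = 0.207). Of 13 genes tested 0 passed, and 4 lay wholly above, against 5.48% of all genes, while Fasn and Acly overlapped. Among matrix genes, Col1a1, a fibrillar collagen, stood at 8.31, 7.27 and 7.40 FPKM in the 12-week libraries and at 16.1, 16.5 and 8.99 FPKM in the 8-week libraries, with 8-week replicate 3 near the 12-week level. Of 13 fibroblast genes tested 0 passed, 4 lay wholly below (7 with library medians centred, 6 after quantile normalization), and the median log2 difference was -0.28. For Col1a1 the log2 difference was -0.74 (adjusted p = 0.337), and -1.0 without that replicate (adjusted p = 0.131). Markers of myoepithelial cells, which contract around the acini, and of basal cells summed to 152 to 170 FPKM at 12 weeks and 188 to 206 FPKM at 8 weeks, without overlap. All 11 of these tested had a lower mean at 12 weeks, as had 5663 of all 9601 genes. Of the 11, 0 passed and 2 lay wholly below, against 10.1% of all genes, and their median log2 difference was -0.18. The 5 adipocyte genes tested all overlapped, with a median log2 difference of -0.35. The part of these cells in the matrix gene differences was not tested.

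**Figure D4:**
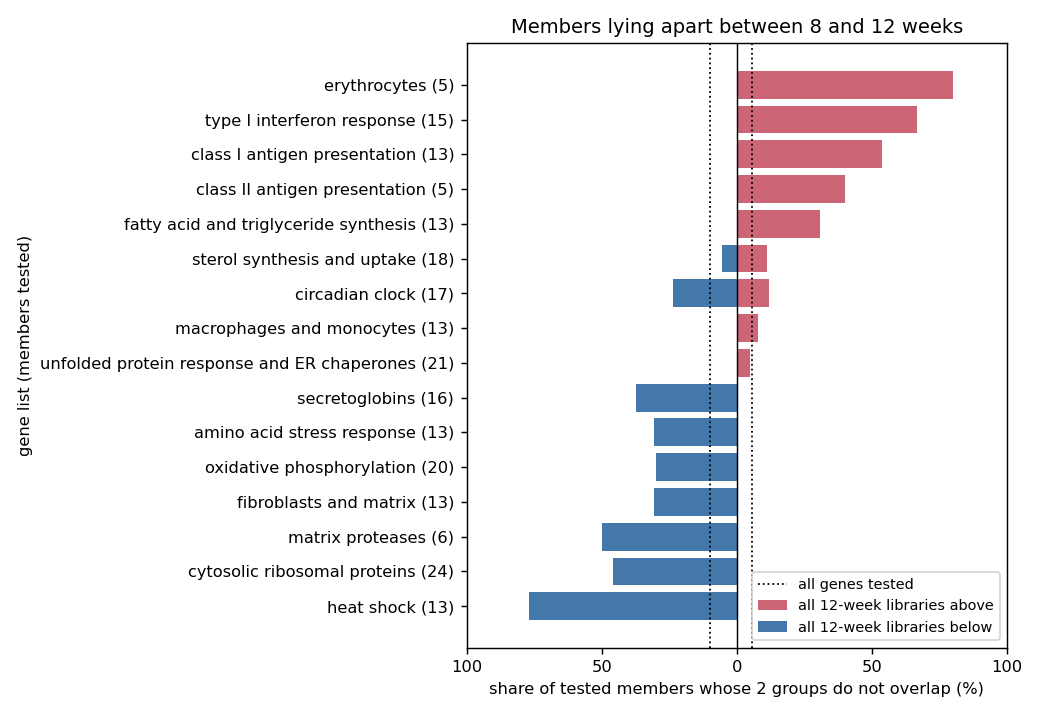
Share of tested members of 16 gene lists whose 12-week libraries all lay above (red, right) or all lay below (blue, left) the 8-week libraries, with the number tested in brackets and dotted lines at the shares of all genes, 5.48% and 10.1%. Erythrocyte and interferon-response genes extend furthest to the right and heat shock genes furthest to the left.

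The lists not yet described held no called gene apart from Pigr. Of 17 lacrimal secretory and transport genes tested, Pigr was the only 1 called, and Aqp5 (the acinar water channel), Ltf (lactoferrin) and Lcn11 overlapped between the ages. Of 13 amino acid stress genes 4 lay wholly below at 12 weeks, among them Mthfd2, an enzyme of mitochondrial folate metabolism, at 21.7 to 22.1 against 25.3 to 39.0 FPKM. All 12-week libraries also lay below in 3 of 6 matrix protease genes, 5 of 13 hypoxia and glycolysis genes and 6 of 20 oxidative phosphorylation genes. Of 21 genes of the unfolded protein response and endoplasmic reticulum chaperones 1 lay wholly above and 0 below. Over all genes the shares were 5.48% above and 10.1% below. The 14 immediate early genes tested all overlapped, and the 15 listed summed to 242 to 941 FPKM at 12 weeks and 264 to 1129 FPKM at 8 weeks, a wide spread within both ages.

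Some counts depended on scaling. Of 24 cytosolic ribosomal protein genes 11 lay wholly below at 12 weeks as deposited, 8 with library medians centred, 6 after rescaling without the genes over 1000 FPKM and 2 after quantile normalization. The oxidative phosphorylation count of 6 was 4, 5 and 3 in the same order. The interferon count was 10 under all 3 other scalings, where up to 12.7% of all genes lay wholly above, and the heat shock count was 8 to 10, where 5.96% to 10.1% of all genes lay wholly below.

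Genes called with the NOD libraries alone but not over all 12 included several with very tight NOD groups and wide reference groups. Rab3d, a GTPase of secretory granules in acinar cells, stood at 34.2, 35.4 and 33.0 FPKM in the 12-week libraries and at 96.7, 104 and 92.9 FPKM in the 8-week libraries. Control libraries lay near each of these levels, at 42.8, 106 and 40.9 FPKM, and ESS libraries did so too, at 42.6, 109 and 43.4 FPKM. Rab3d thus had an adjusted p of 7.7e-05 with the NOD libraries alone and 0.204 over all 12. Sp1, a general transcription factor, stood at 5.96, 6.20 and 6.29 FPKM in the 12-week libraries and at 0.076, 0.215 and 0.074 FPKM in the 8-week libraries, and ESS replicate 1 was at 6.95 FPKM while control libraries were at 0.089 to 0.912 FPKM.

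The transcript table was tested the same way: 13701 transcripts of 9774 genes, of which 11 passed (0.0803%), 5 rising and 6 falling, or 38 (0.277%) with the NOD libraries alone. Of the 11, 5 belong to genes that passed. Furin-202, a transcript of the protease furin, had 135, 129 and 117 FPKM at 12 weeks and 0.044, 0.074 and 0.050 FPKM at 8 weeks, an adjusted p of 1.2e-09, and stood at 0.066 FPKM or less in control and ESS. Furin-203 had 73.4, 78.9 and 65.1 FPKM at 8 weeks and 0.551 to 1.6 FPKM at 12 weeks, and Furin-201 likewise was lower at 12 weeks. At the gene level Furin was not called, with a log2 difference of 0.34 and an adjusted p of 0.492. The split among transcripts of a gene varied between replicates of a group as well: 587 of 7295 transcripts reaching 5 FPKM in some 12-week library were under 0.5 FPKM in another, and 653 of 7584 at 8 weeks. Asgr1 shows it, since Asgr1-203 had 126, 7.25 and 89.2 FPKM in the 12-week libraries while the gene value ranged from 122 to 153 FPKM.

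**Figure D5:**
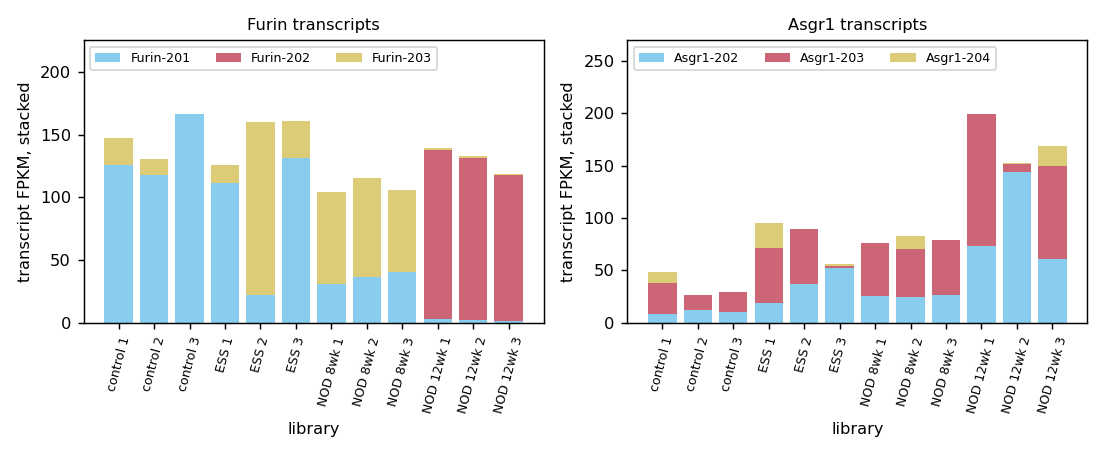
Stacked FPKM of the leading transcripts of Furin (left) and Asgr1 (right) in each of the 12 libraries. Furin-202 takes almost the whole bar in the 3 libraries of 12 weeks and is near 0 in the other 9, and the Asgr1 split differs between 12-week replicates.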

How the data were processed

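Values are FPKM as the authors deposited them, in a gene table and a transcript table per the file headers. Per the labels' protocols, Trizol RNA went into KAPA stranded libraries. Per the submitters' processing notes the build is GRCm38. Aligner and annotation: not given in the sources used here. No counts are given. Steps between low values gave relative depth: 49.4% to 61.0% of low values of the NOD libraries fell within 0.1 of a whole multiple (20% by chance), so whole reads were not recovered. The scan was limited to steps of 0.05 to 0.11 (in library-scaled fragments) after a scan of 0.01 to 0.2 put 2 of the 12 libraries at double the step and 10 at the same step, so relative depth depends on that choice.

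Genes with at least 1 FPKM in 3 of the 6 NOD libraries were tested with limma 3.58.1 in R 4.3.3 on log2(FPKM + 1), 1 mean per group over all 12 libraries, moderated with a trend, two-sided, with Benjamini-Hochberg adjustment over all genes. The procedure was also run on simulated data with normal noise of the same spread in all groups. That run does not cover genes whose spread differs between groups. The members and the 51 lists were chosen with earlier results of these data known. The genes named are the 12 largest rises and falls that passed with at least 5 FPKM and no overlap, and the 4 members of each list with the smallest p. Others named were chosen after their values were seen. Replicate numbers were not treated as pairs, since same-number correlations of deviations were -0.11, 0.04 and -0.07. Copies were sought with blastn 2.17.0 in GENCODE M21 transcripts, at 95% identity over 50% of the length in a single alignment. Of the gene identifiers, 10224 were found in that release with their version, all at identical coordinates.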

Additional observations from a re-analysis of the deposited data

How the results depend on the processing

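The count of 15 genes was 8 with a filter at 5 FPKM, 32 with the NOD libraries alone, 43 after quantile normalization, 25 after rescaling without genes over 1000 FPKM and 6 when a 2-fold change was also required. Leaving out 1 library gave 6 to 22, the lowest without 12-week replicate 2 and 7 without 12-week replicate 3. The share of rises among calls was 60% as deposited, 76% after rescaling and 69.8% after quantile normalization, and both moved the median of all genes by under 0.1 (log2). With the replicate block the count was 13 genes, and 26 with the block and the NOD libraries alone; the samples share only a number. Of the 15 calls, none reversed under any alternative, and Igfbp3 was the only 1 kept in all. The count of 11 transcripts was 7 at a pseudocount of 0.1, 6 with the 5 FPKM filter, 38 with the NOD libraries alone and 4 with the replicate block, and 6 to 18 leaving out a NOD library. Dnaja1 and Fn1, which did not pass, turned to log2 differences of 0.013 and 0.30 with transcript values summed per gene. The cause was not tested. Depth is known in relative terms alone, so no counting error is given.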
